A study of Mus musculus with 27 samples.

Results

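The 9 genes described here mark the early B lineage: Cd79a, Cd79b, Vpreb1, Igll1, Pax5, Ebf1, Rag1, Rag2 and Dntt. They were taken by symbol from the counts of all 27 libraries of a mouse pro-B line, and 9 of 9 were found among 24000 gene rows. Levels are counts per M (mega) reads counted in genes, or CPM. Library sizes left out the 5 summary rows that HTSeq adds for reads it gave to no gene. A member was called silent in a group where the reads pooled over its libraries came to under 0.1 CPM, trace from 0.1 to under 1 CPM, and expressed from 1 CPM. By that rule 2 of 9 members, Cd79a and Cd79b, were expressed in all 7 groups, and Igll1, Pax5, Rag1 and Dntt were silent in all 7 groups. In the group with the fewest pooled reads, 25.1 M, finding no read still allows a level above the silent limit. The classes are point values: with the limit at 0.05 CPM, 35 of 63 pairs of a member and a group were silent, against 41 at 0.1 CPM.

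The cells were Ba/F3, a mouse line labelled pro-B that needs the cytokine interleukin 3 (IL3) and was kept in medium with 1 ng/mL IL3 between experiments. Groups shSTAT5A, shSTAT5B, shLSD1 and shHDAC3 (3 libraries each) carried a lentiviral short hairpin against the named gene. Group shNT (5 libraries) carried a no-target hairpin, the control for the others. All 5 hairpin groups had been under puromycin for at least 1 week, had then gone 6 h without IL3, and had received 10 ng/mL IL3 for 30 min. Untransduced wild-type cells were given the same 6 h without IL3 and 30 min with 10 ng/mL IL3 (WT_IL3, 5 libraries), or were collected after the 6 h without IL3 (WT_deprived, 5 libraries). Every group, the controls included, had therefore gone 6 h without IL3, and none was sampled in routine culture. Whether the hairpin cells were pools or clones is not given in the labels. By the labels these are biological replicates, with no word on whether they were separate cultures, so the p-values measure the spread between these libraries, which may be technical.

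In B-cell development the factors E2A (gene Tcf3), EBF1 and PAX5 act in turn to commit a progenitor and to switch on the genes of the B-cell receptor. RAG1 and RAG2 cut the immunoglobulin gene segments, and terminal transferase (gene Dntt) adds bases at the joints. The finished heavy chain is carried to the cell surface with the surrogate light chain (VPREB1 and lambda 5, gene Igll1) and with the signalling pair CD79A and CD79B, a complex known as the pre-B receptor. STAT5, which IL3 activates in these cells, also carries the signal of the IL7 receptor in normal pro-B cells. LSD1 (gene Kdm1a) and HDAC3 are enzymes that remove methyl and acetyl groups from histones.

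Counted reads per library ranged from 5.48 to 33.8 M, 417.9 M in all. In 22 libraries 8.70 to 11.99% of uniquely placed reads lay outside genes. In the other 5 libraries (replicate 1 of shLSD1, replicates 1 and 2 of shHDAC3, replicates 1 and 3 of shNT) the share was 14.0 to 24.9%, and these had 5.48 to 7.53 M counted reads each. This split was read from the data, and the fits of Cd79a and Cd79b are given with and without these 5 libraries. Each targeted gene was lower under its own hairpin than in shNT cells: Stat5a had 26.0 ± 2.03 CPM in shSTAT5A and 72.3 ± 14.8 CPM in shNT cells, and Stat5b had 33.0 ± 3.40 CPM in shSTAT5B and 116 ± 16.2 CPM in shNT cells. Kdm1a had 77.0 ± 23.9 CPM in shLSD1 cells and 145 ± 10.6 CPM in shNT cells, and Hdac3 had 58.2 ± 22.2 CPM in shHDAC3 cells and 132 ± 23.1 CPM in shNT cells (mean ± SD, n = 3 and 5). All 4 passed edgeR's quasi-likelihood test at an adjusted p under 0.05.

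Upstream sequence was found for 8 of 9 members in RefSeq's promoter table (GRCm38.p6, the mm10 sequence), and Cd79b had no entry. The 250 bases before the RefSeq start are printed for 3 members that span the range of levels and belong to one complex: Cd79a, which was expressed, Vpreb1, which was at a trace, and Igll1, which was silent. Capitals mark CCCNNGGG, the palindromic core bound by EBF1, and CANNTG, the E-box core bound by E2A. Both are their own reverse complement, so a match holds on both strands, and no match of one overlapped a match of the other in these 3 windows.
Cd79a, chr7:24897247-24897496, plus strand: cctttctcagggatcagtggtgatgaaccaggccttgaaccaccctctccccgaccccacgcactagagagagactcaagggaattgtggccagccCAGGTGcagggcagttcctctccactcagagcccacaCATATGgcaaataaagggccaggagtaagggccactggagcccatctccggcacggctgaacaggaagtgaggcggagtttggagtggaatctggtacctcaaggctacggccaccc
Vpreb1, chr16:16869256-16869505, minus strand: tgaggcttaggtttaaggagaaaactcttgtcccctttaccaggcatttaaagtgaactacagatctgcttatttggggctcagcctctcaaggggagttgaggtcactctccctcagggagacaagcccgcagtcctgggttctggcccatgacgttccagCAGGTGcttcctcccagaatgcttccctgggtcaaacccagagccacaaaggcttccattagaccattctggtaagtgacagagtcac
Igll1, chr16:16863986-16864235, minus strand: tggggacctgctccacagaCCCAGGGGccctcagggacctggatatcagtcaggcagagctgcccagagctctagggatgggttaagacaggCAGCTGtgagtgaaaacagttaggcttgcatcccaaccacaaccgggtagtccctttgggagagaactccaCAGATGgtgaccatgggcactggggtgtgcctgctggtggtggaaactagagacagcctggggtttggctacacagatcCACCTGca

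Igll1 alone among the 3 windows held an exact match to the EBF core, with 1 match, while Cd79a held 0 and Vpreb1 held 0. Sites that depart from these letters were not searched for, so 0 matches does not show that a window lacks an EBF1 site. The E-box core matched 2 times in the Cd79a window, 1 time in that of Vpreb1 and 3 times in that of Igll1. Among 32817 windows of the same 250 bases in the RefSeq table, 11.8% held the EBF core and 66.2% held an E-box core. The STAT core TTCNNNGAA was found in 7.01% of those windows and in none of the windows of the 8 members. GENCODE vM21 starts Cd79a and Vpreb1 upstream of the RefSeq start, so that annotation has part of the printed Cd79a window and the whole of the printed Vpreb1 window inside the gene.

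Cd79a and Cd79b encode the paired signalling chains of the B-cell and pre-B receptors. Cd79a (ENSMUSG00000003379.7) lies at chr7:24897381-24902197 on the plus strand and Cd79b (ENSMUSG00000040592.11) at chr11:106311341-106314762 on the minus strand, in GENCODE vM21 (GRCm38/mm10). Both were read in every library, Cd79a with 19900 reads and Cd79b with 12828 reads in all. Per kilobase of exon, Cd79a averaged 31.9 CPM, rank 1821 of 22571 genes with a length, and Cd79b averaged 21.2 CPM, rank 2755. Both therefore stood in the upper part of all genes by level. A small part of the Cd79a exon sequence is shared: 8.31% of its 50-base exon windows also occur in Gm32220. None of those of Cd79b occur in another annotated gene.

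In TMM-scaled CPM, Cd79a stood at 46.7, 51.6 and 44.6 in shSTAT5A, 36.1, 43.2 and 58.5 in shSTAT5B, 26.95, 70.8 and 54.9 in shLSD1, and 27.9, 27.8 and 68.2 in shHDAC3 libraries (replicates 1 to 3). It stood at 26.5, 48.9, 24.2, 43.8 and 51.1 CPM in shNT libraries, 47.0, 52.8, 49.8, 45.6 and 46.2 CPM in WT_IL3 libraries, and 47.3, 57.8, 52.3, 50.2 and 53.1 CPM in WT_deprived libraries (replicates 1 to 5). The wild-type and shSTAT5A libraries lay close together, while 1 library of shLSD1, 2 of shHDAC3 and 2 of shNT lay below 28 CPM. The lowest and highest Cd79a values of all 27 libraries, 24.2 and 70.8 CPM, both came from hairpin groups.

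Cd79b stood at 32.6, 33.6 and 23.6 CPM in shSTAT5A, 29.9, 21.3 and 46.3 CPM in shSTAT5B, 19.3, 43.7 and 45.0 CPM in shLSD1, and 15.4, 19.2 and 28.6 CPM in shHDAC3 libraries. It stood at 15.9, 39.6, 28.0, 29.4 and 34.9 CPM in shNT, 24.4, 25.6, 39.0, 22.3 and 20.02 CPM in WT_IL3, and 26.6, 30.8, 66.5, 29.1 and 27.7 CPM in WT_deprived libraries. Replicate 3 was the highest library of both wild-type groups, and replicate 1 was the lowest of shLSD1, shHDAC3 and shNT. The groups overlapped throughout.

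**Figure D1:**
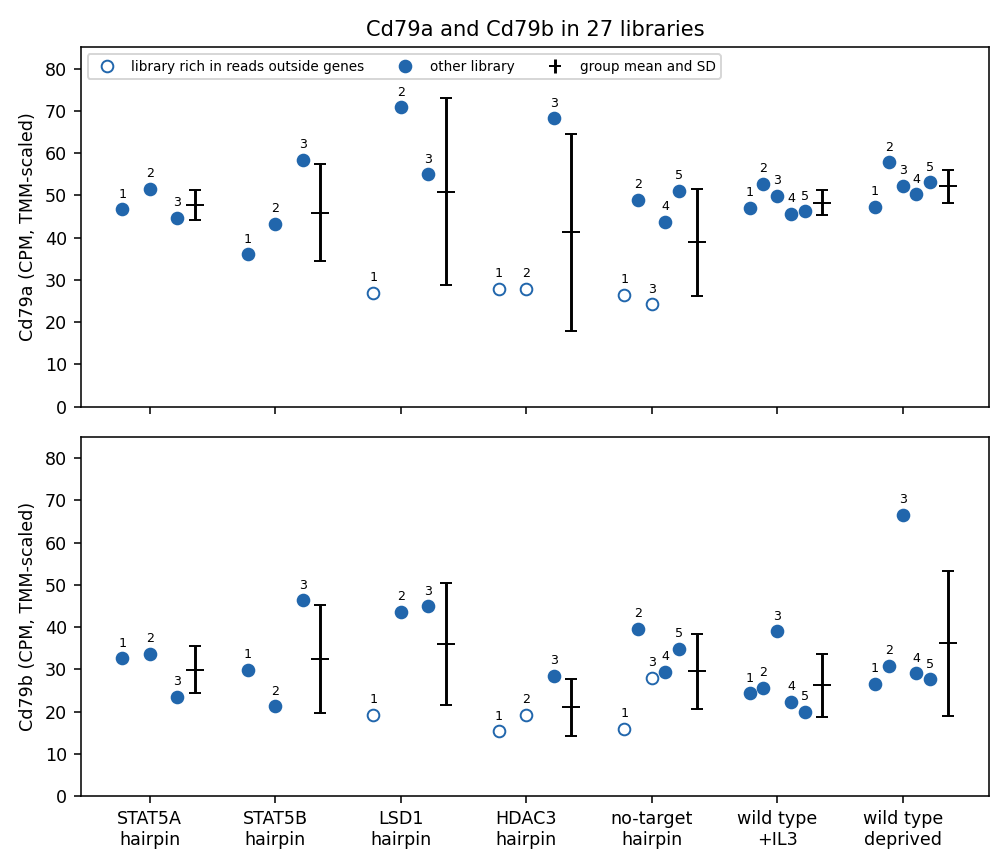
Cd79a and Cd79b in each of the 27 libraries (TMM-scaled CPM, vertical axis) by group (horizontal axis); points are libraries, bars are the group mean and SD, and open symbols are the 5 libraries rich in reads outside genes. Cd79a lies at 24.2 to 27.9 CPM in those 5 libraries and at 36.1 to 70.8 CPM in the 22 others.

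By mean level, Cd79a was ordered WT_deprived (52.1 ± 3.90 CPM), shLSD1 (50.9 ± 22.2), WT_IL3 (48.3 ± 2.97), shSTAT5A (47.6 ± 3.56), shSTAT5B (45.9 ± 11.4), shHDAC3 (41.3 ± 23.3) and shNT (38.9 ± 12.7). The Cd79b order was WT_deprived (36.1 ± 17.1 CPM), shLSD1 (35.96 ± 14.5), shSTAT5B (32.5 ± 12.7), shSTAT5A (29.9 ± 5.54), shNT (29.6 ± 8.89), WT_IL3 (26.3 ± 7.45) and shHDAC3 (21.1 ± 6.78). No pair of neighbours in either order differed by more than the larger SD of the pair. The order rests in part on the 5 libraries rich in reads outside genes. Among the other libraries, the single shHDAC3 library (68.2 CPM) and the shLSD1 libraries (median 62.9 CPM) had the highest Cd79a, shNT libraries had a median of 48.9 CPM, and WT_deprived libraries had a median of 52.3 CPM. From the lowest group mean over all libraries to the highest the span was 1.34-fold for Cd79a and 1.72-fold for Cd79b. In edgeR's test for any difference among the 7 groups, Cd79a had an adjusted p of 0.739 and Cd79b 0.460, so 0 of 2 tested members were called where 29% of the 12073 genes tested were.

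IL3 given back for 30 min was the first comparison. Cd79b averaged 26.3 ± 7.45 CPM in WT_IL3 and 36.1 ± 17.1 CPM in WT_deprived cells (n = 5 each), a log2 fold change of -0.46 (SE 0.29, edgeR adjusted p 0.527). Cd79a averaged 48.3 ± 2.97 CPM in WT_IL3 and 52.1 ± 3.90 CPM in WT_deprived cells, a log2 fold change of -0.11 (SE 0.25, adjusted p 0.891). Thus 0 of 2 tested members were called against 3.82% of all genes tested, and both ranges overlapped between the groups where 11.2% of genes had ranges that did not overlap.

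The replicate numbers of the wild-type groups were taken to pair their libraries, which was read from the data and is not in the labels. Within these pairs both genes were lower with IL3 in 5 of 5 pairs, as 23.3% of all genes tested were. For Cd79b the log2 ratios of IL3-treated over deprived cells were -0.13, -0.27, -0.77, -0.38 and -0.47 in pairs 1 to 5. For Cd79a they were -0.01, -0.13, -0.07, -0.14 and -0.20. With the pair as a block and only these 2 groups in the fit, an alternative added after the data were seen, Cd79b fell by 0.40 on the log2 scale (SE 0.10, edgeR adjusted p 0.0289) and Cd79a was not called. That fit called 22.4% of 11195 genes, so 1 of 2 members called is not set apart from the background. That Cd79b call was kept without pair 1 (adjusted p 0.0177) or pair 3 (0.0213), and was lost without pair 2 (0.0724), pair 4 (0.0889) or pair 5 (0.117). With the block in the fit of all 27 libraries the Cd79b log2 fold change was -0.42 and its adjusted p was 0.485. Without replicate 3 of WT_deprived, its highest library, the unpaired log2 fold change was -0.11.

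Against the control hairpin, neither gene changed past the test under any of the 4 knockdowns. In shSTAT5A over shNT cells the log2 fold change was 0.29 for Cd79a (95% interval -0.30 to 0.87, edgeR adjusted p 0.717) and 0.02 for Cd79b (-0.69 to 0.72, adjusted p 0.987). In shSTAT5B over shNT cells it was 0.23 for Cd79a (-0.35 to 0.82, adjusted p 0.672) and 0.13 for Cd79b (-0.57 to 0.83, adjusted p 0.858). Under both STAT5 hairpins the intervals lay between log2 differences of -1 and 1. The background of called genes was 0.0663% for STAT5A and 0.34% for STAT5B knockdown, so an uncalled member is the usual case there.

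Knockdown of the histone enzymes gave these values. In shLSD1 over shNT cells the log2 fold change was 0.39 for Cd79a (95% interval -0.19 to 0.98, edgeR adjusted p 0.969) and 0.29 for Cd79b (-0.41 to 0.99, adjusted p 1.00). In shHDAC3 over shNT cells it was 0.09 for Cd79a (-0.50 to 0.68, adjusted p 0.952) and -0.49 for Cd79b (-1.21 to 0.24, adjusted p 0.870). The background of called genes was 0.166% for LSD1 and 0.0248% for HDAC3 knockdown.

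Set side by side, shLSD1 over shHDAC3 gave the largest Cd79b difference of the 8 comparisons. Cd79b averaged 35.96 ± 14.5 CPM in shLSD1 and 21.1 ± 6.78 CPM in shHDAC3 cells (n = 3 each), a log2 fold change of 0.78 (95% interval -0.02 to 1.57, edgeR adjusted p 0.365, with 0.82% of genes called). Cd79a differed by 0.30 in the same direction (adjusted p 0.695). In shSTAT5A over shSTAT5B cells the differences were 0.06 for Cd79a and -0.11 for Cd79b, with adjusted p at 1 for both and 0.0248% of genes called. In shNT over WT_IL3 cells they were -0.31 for Cd79a (adjusted p 0.483) and 0.17 for Cd79b (adjusted p 0.750), and without the 5 libraries rich in reads outside genes they were -0.016 and 0.39. In that comparison edgeR called 0% of genes, while 2042 genes had an unadjusted p under 0.05 and DESeq2 called 126. The 4 knockdown comparisons and shNT over WT_IL3 share the shNT libraries, so their values are not independent.

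Over the 8 comparisons, edgeR's fit reported here gave 0 of 2 tested members an unadjusted p under 0.05, DESeq2 called 0 at an adjusted p under 0.05, and the ranges of the groups overlapped in 16 of 16 cases. For Cd79b in shLSD1 over shHDAC3 cells, DESeq2 gave an unadjusted p of 0.0499 (adjusted p 0.327). There edgeR gave 0.049 without the filter (adjusted p 0.568) and 0.0312 with the replicate block (adjusted p 0.287). It gave 0.0109 without replicate 1 of shLSD1 (adjusted p 0.0930) and 0.0221 without replicate 3 of shHDAC3 (adjusted p 0.139). Leaving out any other library of these groups gave 0.121 to 0.184. Cd79a had 0.00955 without replicate 3 of shHDAC3 (adjusted p 0.106) and 0.071 to 0.977 when another library was left out. For ranges that did not overlap, the share of all genes tested was 4.8% for STAT5A, 5.72% for STAT5B, 2.8% for LSD1 and 2.45% for HDAC3 knockdown, 5.35% for shNT over WT_IL3, 7.07% for shSTAT5A over shSTAT5B, 10.5% for shLSD1 over shHDAC3 and 11.2% for WT_IL3 over WT_deprived cells.

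**Figure D2:**
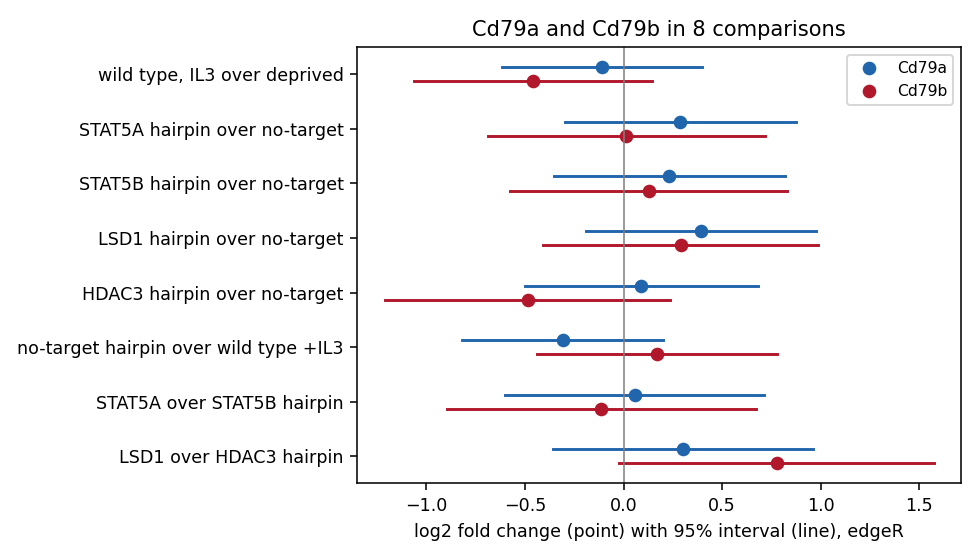
Log2 fold change of Cd79a and Cd79b in each of the 8 comparisons (horizontal axis, points with 95% intervals from edgeR's fit of all 27 libraries; the line at 0 is no difference). Every interval includes 0, and the widest departure is Cd79b in shLSD1 over shHDAC3 cells at 0.78.

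The level of Cd79a differed between libraries rich and poor in reads outside genes. It lay at 24.2 to 27.9 CPM in the 5 libraries rich in such reads and at 36.1 to 70.8 CPM in the 22 others, with no overlap, a split in the same direction that 11.9% of the genes tested also had. Cd79b lay at 15.4 to 28.0 CPM in the 5 libraries and at 20.02 to 66.5 CPM in the others, with overlap. The 5 libraries also had fewer counted reads, 5.48 to 7.53 M against 8.47 to 33.8 M in the 22 others. Inside shHDAC3 the Cd79a values were 27.9 and 27.8 CPM in the 2 rich libraries and 68.2 CPM in the third. Inside shNT they were 26.5 and 24.2 CPM in the 2 rich libraries and 43.8 to 51.1 CPM in the other 3. Fitted without the 5 libraries, the Cd79a log2 fold change was 0.39 for shLSD1 (p 0.0256 unadjusted, edgeR adjusted p 0.522) and 0.51 for shHDAC3 (p 0.0193 unadjusted, adjusted p 0.563, with 1 shHDAC3 library left, which is assumed to vary like the others). For shSTAT5A it was -0.0064 and for shSTAT5B -0.068, each against shNT, and in the test of any difference among groups Cd79a had an adjusted p of 0.124. Cd79b without the 5 libraries was at -0.21 for shSTAT5A, -0.10 for shSTAT5B, 0.36 for shLSD1 and -0.27 for shHDAC3, each against shNT. In shLSD1 over shHDAC3 cells Cd79a was then at -0.12 and Cd79b at 0.63. The parts of read placement and of depth in these values were not tested.

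**Figure D3:**
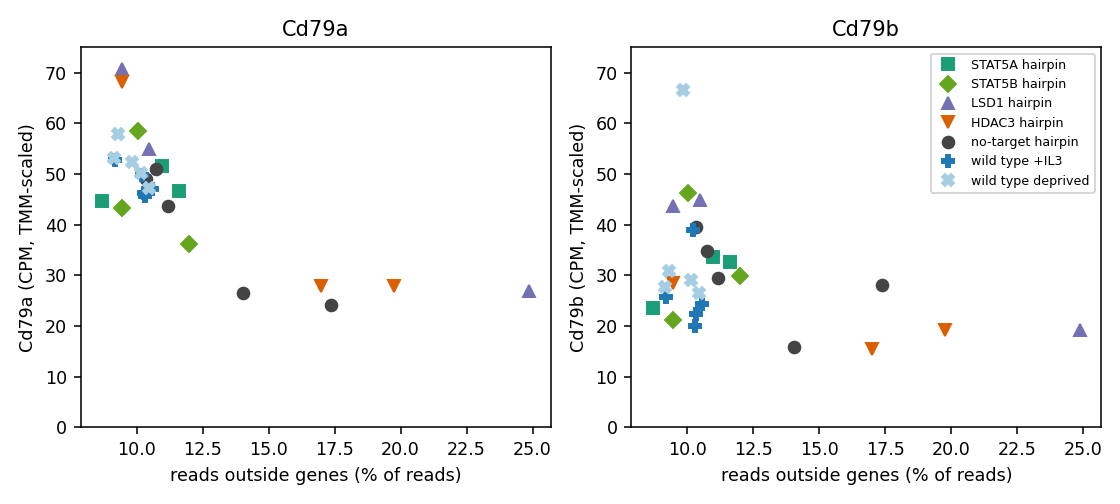
Cd79a and Cd79b (TMM-scaled CPM, vertical axis) against the percentage of uniquely placed reads that lay outside genes (horizontal axis), 1 point per library, coloured by group. The 5 libraries from 14.0 to 24.9% all have Cd79a under 28 CPM, and the 22 others, from 8.70 to 11.99%, all lie above 36 CPM.

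The chains work as a pair, and the ratio of their reads within a library does not depend on library size. Cd79a over Cd79b ranged from 0.786 to 2.39 with a median of 1.62. In the wild-type groups replicate 3 had the lowest ratio of each, 1.28 in WT_IL3 against 1.93 to 2.31 in its other libraries, and 0.786 in WT_deprived against 1.73 to 1.92 in its other libraries. Replicate 3 of shNT had 0.864, and in these 3 libraries Rag2 also had more reads than in the rest of their groups (6 in WT_IL3, 5 in WT_deprived and 3 in shNT). Over the 27 libraries the log2 levels of the chains had a Pearson r of 0.64 and a Spearman rho of 0.68, and r was 0.43 over the 22 libraries poor in reads outside genes. These correlations share library composition and are given as a description.

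The genes whose log2 level followed each chain most closely over the 27 libraries were Aaas (r 0.92), Rac2 (0.92) and Cd37 (0.91) for Cd79a, and Ebpl (0.88), Dpm1 (0.85) and Ccdc163 (0.85) for Cd79b. Aaas encodes a nuclear pore protein, Rac2 a small GTPase of blood cells, and Cd37 a tetraspanin of B-cell membranes. Ebpl is a relative of the emopamil binding protein, and Dpm1 a subunit of dolichol-phosphate mannose synthase. Among 12072 other tested genes, Cd79b ranked 2051 by likeness to Cd79a, and Cd79a ranked 675 by likeness to Cd79b. Aaas, Rac2 and Cd37 all lay lower in the 5 libraries rich in reads outside genes, and without these 5 their r with Cd79a was 0.79, 0.78 and 0.64.

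The surrogate light chain was at or near the limit of detection. Vpreb1 (ENSMUSG00000059305.12, chr16:16868403-16870843, minus strand) had 131 reads in 24 of 27 libraries, 0.314 CPM pooled (95% exact interval 0.262 to 0.372, which like all such intervals here covers counting error only). Its reads numbered 2, 5 and 7 in shSTAT5A, 1, 11 and 2 in shSTAT5B, 1, 5 and 11 in shLSD1, and 0, 1 and 0 in shHDAC3 libraries. They numbered 0, 3, 2, 9 and 2 in shNT, 11, 6, 5, 4 and 4 in WT_IL3, and 11, 7, 11, 7 and 3 in WT_deprived libraries. Vpreb1 was thus at a trace in 6 groups and under the silent limit in shHDAC3 cells, where 1 read fell in 25.1 M (0.0398 CPM, interval 0.00101 to 0.222). Its level per kilobase of exon was 0.240 CPM, against 31.9 CPM for Cd79a.

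Vpreb1 did not pass the filter on low counts and has no test in the fit reported here. With the filter removed, edgeR gave Vpreb1 an unadjusted p of 0.0328 (adjusted p 0.949) for shHDAC3 over shNT cells and 0.0151 (adjusted p 0.397) for shLSD1 over shHDAC3 cells, and no member was called in any comparison. The Vpreb1 reads carry a second limit: 23.6% of its 50-base exon windows also occur in Vpreb2 or Top3b, and 108 of its exon bases overlap Top3b on the other strand, which a kit that does not mark strand cannot tell apart. Vpreb2, its near copy in the mouse, is listed with 0 reads in all 27 libraries. Reads without a unique place were counted in no gene, so this 0 does not show that Vpreb2 was not expressed.

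Igll1, which encodes lambda 5, the partner of VPREB1 in the surrogate light chain, lies beside Vpreb1 on chromosome 16 (ENSMUSG00000075370.12, chr16:16860671-16863985, minus strand). It had 19 reads in 12 libraries, 0.0455 CPM pooled (interval 0.0274 to 0.0710). Its group totals were 2 reads in shSTAT5A, 0 in shSTAT5B, 4 in shLSD1, 0 in shHDAC3, 3 in shNT, 2 in WT_IL3 and 8 in WT_deprived cells. No library had over 4 reads. Its mean TMM-scaled level was 0.096 ± 0.094 CPM in WT_deprived, 0.0765 ± 0.0701 CPM in shLSD1 and 0.0761 ± 0.0697 CPM in shNT libraries. With SDs of that size, silence in those groups is a point value and not a bound. For shSTAT5B and shHDAC3 a count of 0 allows up to 0.0685 and 0.119 CPM (3 counts over the group), and the value for shHDAC3 is above the silent limit. With no filter, the lowest edgeR p of Igll1 among the knockdowns was 0.0850 (adjusted p 0.596), for shSTAT5B.

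The factors that commit cells to the B lineage were not detected in most libraries. Pax5 (ENSMUSG00000014030.15, chr4:44524757-44710487, minus strand) holds the B-cell programme in place, and had 3 reads in 417.9 M: 1 in replicate 1 of shLSD1 and 2 in replicate 3 of shNT. Pooled, this is 0.00718 CPM (interval 0.00148 to 0.0210). Ebf1 (ENSMUSG00000057098.14, chr11:44617317-45008091, plus strand), which acts before Pax5, had 7 reads: 3 in replicate 1 of shLSD1 and 4 in replicate 2 of shHDAC3. These 4 reads put Ebf1 at 0.159 CPM in shHDAC3 cells (interval 0.0434 to 0.407), a trace, and it was silent in the other 6 groups. In both wild-type groups Pax5 and Ebf1 had 0 reads, which allows up to 0.0291 CPM in WT_IL3 and 0.0305 CPM in WT_deprived cells.

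The recombination genes were likewise silent. Rag1 (ENSMUSG00000061311.6, chr2:101638282-101649501, minus strand), the catalytic subunit of the recombinase, had 2 reads, 1 each in replicate 1 of shLSD1 and replicate 3 of shNT. Dntt (ENSMUSG00000025014.13, chr19:41029275-41059525, plus strand) had 5 reads, 2 in replicate 1 of shLSD1 and 1 each in replicate 3 of shSTAT5A, replicate 2 of shSTAT5B and replicate 2 of shNT. Pooled over all libraries Rag1 was at 0.00479 CPM (interval 0.000580 to 0.0173) and Dntt at 0.0120 CPM (interval 0.00389 to 0.0279).

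Rag2, the other subunit of the recombinase, was read slightly more often than Rag1, its neighbour on chromosome 2 (ENSMUSG00000032864.4, chr2:101624718-101632529, plus strand). It had 24 reads in 10 libraries, 0.0574 CPM pooled (interval 0.0368 to 0.0855). In WT_IL3 libraries it had 0, 0, 6, 1 and 4 reads and in WT_deprived libraries 0, 0, 5, 1 and 1, so replicate 3 was highest in both. With 11 reads, WT_IL3 was the one group in which Rag2 passed the silent limit, at 0.107 CPM (interval 0.0532 to 0.191), and WT_deprived stood at 0.0711 CPM (interval 0.0286 to 0.147). In hairpin cells it had 3 reads in replicate 3 of shNT and 1 read each in a shSTAT5A, a shSTAT5B and a shLSD1 library. Of the 50-base exon windows of Rag2, 4.71% also occur in B230118H07Rik, a gene on the other strand whose exons overlap it by 208 bases.

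**Figure D4:**
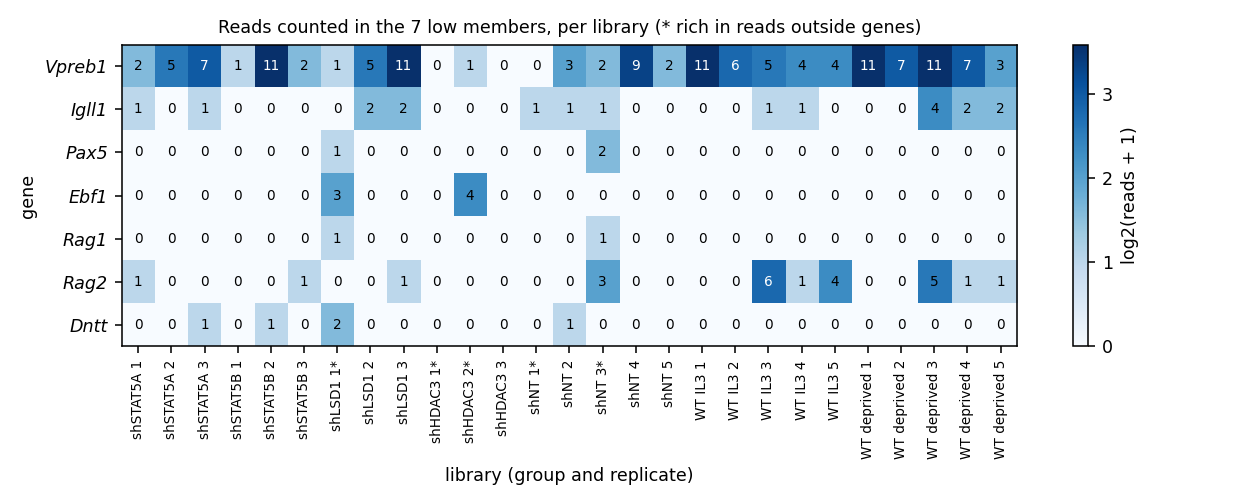
Reads of the 7 members below the filter in each of the 27 libraries (columns, by group; numbers in the cells are reads, the colour scale is log2 of reads + 1, and * marks the 5 libraries rich in reads outside genes). Vpreb1 has reads in 24 libraries with at most 11 in any, and the Pax5, Ebf1 and Rag1 reads stand in libraries rich in reads outside genes.

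The few reads of the silent genes were unevenly spread over libraries. The 12 reads of Pax5, Ebf1 and Rag1 all fell in 3 of the 5 libraries rich in reads outside genes, and the 22 others had 0 reads of each in 384.9 M, which allows up to 0.00779 CPM. Rag2, Igll1 and Dntt were read in both classes of library. They had 21, 17 and 3 reads in the 22 libraries and 3, 2 and 2 reads in the 5 rich ones. Replicate 1 of shLSD1, with 24.9% of reads outside genes, had at least 1 read in 18508 genes, against 13262 to 14738 genes in the 22 libraries. It also had a read in 28 of the 38 silent genes among the members and the related lists, against 3 to 12 in the other 4 rich libraries and 1 to 9 in the 22. The trace of Ebf1 in shHDAC3 cells therefore rests on 1 library with 19.8% of reads outside genes. Fewer expressing cells and less RNA per cell cannot be told apart at these levels in bulk RNA. Of 63 pairs of a member and a group, 41 were silent, and the share of all genes that were silent was not counted.

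Other regulators of the B lineage were expressed in part. Of 20 listed, 8 were expressed, 5 were at a trace and 7 were silent. The share of all genes in each class was not counted. The counts of this list and of those that follow are therefore description only, with no background beside them. Tcf3, which encodes E2A, averaged 122 ± 17.4 CPM over the 27 libraries, and its partner Tcf12 averaged 162 ± 57.5 CPM. Spi1 (PU.1, a factor of myeloid and B cells) averaged 91.6 ± 35.97 CPM and Ikzf1 (Ikaros) 5.02 ± 3.11 CPM. Foxo1, which acts with EBF1 in early B cells and drives Rag1 and Rag2, had 4 reads in 2 libraries. Irf4, Pou2af1, Lef1, Bcl11a, Sox4 and Id3 were also silent.

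Genes of the receptor and of its signalling were expressed in part. Of 27 listed genes of the pre-B receptor, B-cell receptor and B-cell surface found in the files, 10 were expressed, 8 were at a trace and 9 were silent. Syk, the kinase recruited by the CD79 chains, averaged 121 ± 21.9 CPM, and Btk averaged 211 ± 36.6 CPM. Lyn averaged 84.7 ± 15.9 CPM and Plcg2 averaged 102 ± 16.5 CPM. Blk, another kinase of the Src family and best known from B cells, was silent. The adaptor Blnk had 1 read in all, and the IL7 receptor chain Il7r had 10 reads in 8 libraries. Vpreb3 was at a trace with 46 reads in 19 libraries. The immunoglobulin genes Ighm and Igkc were not analysed here.

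The other listed genes of V(D)J recombination and end joining, many of which also serve DNA repair, were all expressed, 14 of 14. Prkdc, the DNA-dependent protein kinase, averaged 70.4 ± 33.7 CPM, Xrcc6 (Ku70) 70.1 ± 13.4 CPM, and Lig4 (DNA ligase IV) 5.99 ± 1.91 CPM. Polm, a polymerase related to Dntt, averaged 29.2 ± 8.33 CPM and the RAG cofactor Hmgb2 averaged 487 ± 150 CPM (SD, n = 27 throughout these lists).

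**Figure D5:**
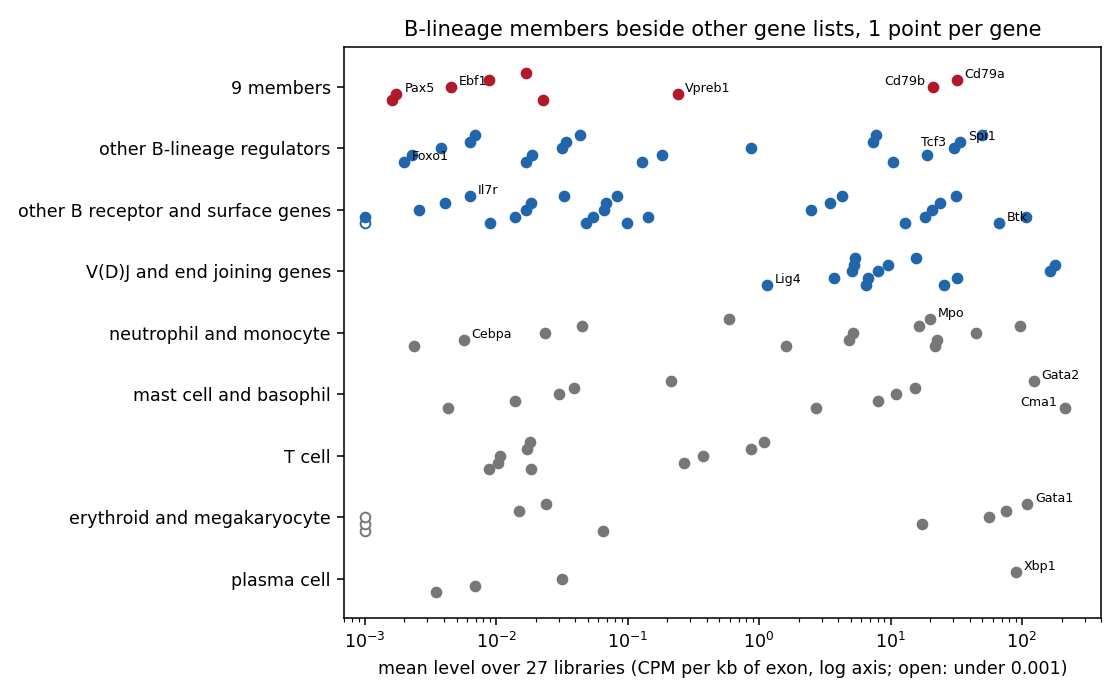
Mean level over all 27 libraries per kilobase of exon (CPM per kb, horizontal log axis) of the 9 members, the related B-lineage lists and the marker lists of other blood lineages (rows), 1 point per gene; open points are genes under 0.001. Cd79a and Cd79b lie at 31.9 and 21.2 CPM per kb, Vpreb1 at 0.240 and the other 6 members at 0.0226 or lower.

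In the comparisons these lists gave 1 call in all. The genes tested were 12 regulators, 14 receptor and surface genes and 14 genes of V(D)J recombination and end joining. Of these, 0 rose and 0 fell in 7 of the 8 comparisons. In shLSD1 over shHDAC3 cells 1 of 14 receptor and surface genes rose, where 0.82% of all genes were called. That gene was Fcgr2b, the inhibitory Fc receptor of B and myeloid cells. It had 189, 463 and 192 CPM in shLSD1 and 21.96, 43.7 and 38.7 CPM in shHDAC3 libraries, so the groups did not overlap, as for 10.5% of genes (log2 fold change 3.02, SE 0.70, edgeR adjusted p 0.0416). The log2 fold change was 2.45 to 3.25 over all alternatives. The call was kept by DESeq2 (adjusted p 0.00214), with the replicate block (0.0106) and with relative log expression factors (0.0407). It was also kept by edgeR without replicate 1 of shLSD1 (adjusted p 0.0227) or replicate 3 of shLSD1 (0.0384). With the replicate block and only the 2 groups in the fit it was kept too (0.0451). The call was lost without any 1 of the 3 shHDAC3 libraries or without replicate 2 of shLSD1 (adjusted p 0.0651 to 0.225), with no filter (0.103), with only the 2 groups in the fit (0.207) and without the 5 libraries rich in reads outside genes (0.345). The list medians of the log2 fold change lay between -0.42, for the regulators in shSTAT5A over shNT cells, and 0.29, for the receptor and surface genes in shLSD1 over shNT cells.

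Most of the listed B-lineage markers were silent in this line labelled pro-B. Of 14 B-lineage markers, among them the 9 members, 3 were expressed (Cd79a, Cd79b and the pan-leukocyte gene Ptprc), 1 was at a trace and 10 were silent. Of 11 mast cell and basophil markers 6 were expressed, led by the factor Gata2 at 662 ± 209 CPM and the protease Cma1 at 232 ± 237 CPM, while Kit and Fcer1a were silent. Of 14 neutrophil and monocyte markers 9 were expressed, among them Mpo (myeloperoxidase) at 68.0 ± 92.7 CPM, while Cebpa and Ly6c2 were silent. Of 10 erythroid and megakaryocyte markers 4 were expressed, among them Gata1 at 267 ± 85.8 CPM and Itga2b at 409 ± 149 CPM, and the globins were silent. Of 10 T-cell markers 3 were expressed, and the 10 together summed to 3.675 to 15.29 CPM per library. Of 4 plasma cell markers found in the files 1 was expressed. No share over all genes stands beside these counts, so they do not rank the lineages. No other cell type name is given to these cells here.

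Summed per library, the B-lineage markers ranged from 388 to 478 CPM in shSTAT5A, 308 to 491 CPM in shSTAT5B, 375 to 555 CPM in shLSD1, 361 to 538 CPM in shHDAC3, 304 to 658 CPM in shNT, 265 to 341 CPM in WT_IL3 and 260 to 325 CPM in WT_deprived libraries. Ptprc alone contributed 155 to 605 CPM to these sums. The neutrophil and monocyte markers summed to 104 to 139 CPM in shHDAC3 and 425 to 758 CPM in shLSD1 libraries, the comparison in which Fcgr2b was called. They summed to 226 to 974 CPM in shSTAT5A, 358 to 896 CPM in shSTAT5B and 144 to 402 CPM in shNT libraries. In WT_IL3 libraries the sums were 187 to 427 CPM, and in WT_deprived libraries 200 to 533 CPM. The part of these markers in the Fcgr2b call was not tested.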

How the data were processed

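PolyA RNA of Ba/F3 cells was sequenced from TruSeq RNA v2 libraries, per the labels. The deposited files, 1 for each library, hold the authors' raw read counts by gene symbol. The mm10 build is named in the submitters' processing notes, with HTSeq 0.5.4p5, TopHat2 2.0.10, Trimmomatic 0.30 and DESeq2 1.2 as tools. Their order, the counting mode and the annotation are not given in the sources used here.

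The 9 members and the gene lists were chosen with earlier results of these data known. All 27 libraries entered 1 edgeR quasi-likelihood fit (edgeR 4.0.16, limma 3.58.1, R 4.3.3; TMM factors, filterByExpr, robust option, no covariate), which kept 12073 genes and 2 of 9 members. Genes were called at a Benjamini-Hochberg adjusted p under 0.05 over all genes tested, in 8 comparisons and in 1 test of any difference. CPM was computed from the deposited counts, pooled without TMM for level classes. Intervals are exact at 95%, and a count of 0 was given the limit of 3 counts. They cover counting error only, since reads copied by PCR were not told apart. Libraries of a group differed by more than sampling noise (chi-square per degree of freedom 10.4 to 164). The fit was also run on counts simulated from its own means and dispersions, without pairing and without libraries rich in reads outside genes. That run cannot show how the fit behaves where these matter.

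Same-numbered libraries of the wild-type groups deviated together in 5 of 5 pairs (r 0.37 to 0.72), so their numbers were taken to pair them. Differently numbered libraries were not compared in this way, so whether the numbers mark true pairs was not tested further. Named list genes were those called in any comparison, genes fixed as defining, and for each expressed member the 3 most alike genes. Further list and marker genes were named after their values were seen. Tried as alternatives were relative log expression factors, no filter, DESeq2 1.42.0, a replicate block, the 2 compared groups alone, leaving out each library, and leaving out the 5 libraries rich in reads outside genes. Positions and exon lengths came from GENCODE vM21.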

Additional observations from a re-analysis of the deposited data

Results flagged for a closer look

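In the 5-library groups, 18 combinations of a member and a group with any read were searched for a library far from the others, and 6 stood out. For values that vary smoothly chance gives about 1 in 20, but a group with reads in 1 library always stands out, so that rate does not apply to 4 of the 6. Cd79b in replicate 3 of WT_deprived stood at 66.5 CPM, with the next library of the group at 30.8 CPM. Rag2 in the same library stood at 0.271 CPM (5 reads), with the next at 0.0701 CPM. In replicate 3 of shNT, Pax5 stood at 0.253 CPM (2 reads), Rag1 at 0.127 CPM (1 read) and Rag2 at 0.380 CPM (3 reads), and the other 4 libraries of that group had 0 reads of each. Dntt in replicate 2 of shNT stood at 0.119 CPM (1 read), with 0 reads in the others. Of these 6 values, 5 rest on 1 to 5 reads.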

How the results depend on the processing

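Of 250 refitted log2 fold changes of Cd79a and Cd79b, 227 kept their direction and their side of the threshold, 3 passed the threshold and 20 turned direction, of which 0 had an adjusted p under 0.05 (the lowest was 0.314). The count of members called stayed at 0 in every refit of 7 comparisons and of the test of any difference, and of IL3 against deprived wild type except with the replicate block and only those 2 groups, where it was 1 with all pairs and 0 to 1 when a pair was left out. The replicate block changed no other call of a member.

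With the replicate block, Cd79b in shSTAT5A over shNT cells was -0.011. Without the 5 libraries rich in reads outside genes, Cd79b was -0.21 and Cd79a -0.0064 in shSTAT5A over shNT cells, Cd79b -0.10 and Cd79a -0.068 in shSTAT5B over shNT cells, and Cd79a -0.12 in shLSD1 over shHDAC3 cells. Leaving out 1 library, Cd79a ranged from -0.50 to 0.31 in shHDAC3 over shNT, -0.010 to 0.89 in shLSD1 over shHDAC3 and -0.089 to 0.26 in shSTAT5A over shSTAT5B cells. Cd79b ranged from -0.34 to 0.23 in shSTAT5A over shSTAT5B, -0.15 to 0.16 in shSTAT5A over shNT and -0.21 to 0.36 in shSTAT5B over shNT cells. In shLSD1 over shNT cells Cd79a ranged from 0.077 to 0.69 and Cd79b from 0.092 to 0.58. The cause was not tested.

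Over all alternatives, the number of genes called ran from 298 to 3454 for IL3-stimulated over deprived wild type (461 in the fit reported), 0 to 32 for STAT5A (8), 0 to 171 for STAT5B (41), 0 to 57 for LSD1 (20) and 0 to 10 for HDAC3 knockdown (3), 0 to 126 for shNT over WT_IL3 (0), 0 to 12 for shSTAT5A over shSTAT5B (3), 0 to 403 for shLSD1 over shHDAC3 (99) and 2041 to 5358 for any difference (3500). The number of silent pairs of a member and a group ran from 35 to 43 (41). A count of 0 allows up to 0.542 CPM in replicate 1 of shLSD1 and up to 0.00779 CPM over the 22 libraries poor in reads outside genes.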
